A study of Mus musculus with 4 samples.

Results

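The heat shock chaperones described here are 10 genes of the cytosolic and mitochondrial protein-folding machinery, Hspa1a, Hspa1b, Hspa8, Hsp90aa1, Hsp90ab1, Hspd1, Hspe1, Hsph1, Dnaja1 and Dnajb1, chosen by name from the 32285 genes of the count tables. They were measured in T cells of the lymph nodes that drain MC38-OVA tumours, tumours of a mouse colon carcinoma line that carries the model antigen ovalbumin. The cells were sorted as live T cells by flow cytometry, and transcripts were counted with a droplet single-cell kit that reads the 5′ end of each transcript. Each of 4 groups is 1 library. WT-CTRL and WT-DOX come from mice with the control genotype, given the control treatment or doxorubicin, an anthracycline chemotherapy drug. KO-CTRL and KO-DOX come from mice in which PD-L1, the product of Cd274, was knocked out conditionally in dendritic cells, given the control treatment or doxorubicin. Mice of all 4 groups carried the tumour. The sources used here do not give the Cre line, the age of the mice, the dose or the number of mice in a library. With 1 library a group, differences between groups have no replicate and no test, and their intervals cover counting error only.

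After filtering, the libraries held 12463 T cells in WT-CTRL, 12155 for WT-DOX, then 12667 in KO-CTRL and lastly 10079 for KO-DOX, the order used for all values below, with 36662165 to 45707968 unique molecular identifiers (UMIs, each 1 counted transcript) and a median of 3014 to 3094 UMIs a cell. The 10 genes took 829984 UMIs in all. Cd274 stood at 66.6, 65.7, 84.8 and 82.7 CPM (UMI counts scaled to the depth of the library). It was higher in both libraries with the knockout label. The counting intervals were apart, at 64.3 to 69.1 and 63.2 to 68.1 against 82.2 to 87.6 and 79.8 to 85.7 CPM. The knockout concerns dendritic cells, so levels in sorted T cells cannot show it. The cause of the higher values was not tested. Of all barcodes, 1283 occurred in more than 1 library. Over all T cells, summed B cell markers stood at 6.06 to 8.32 CPM, myeloid markers at 4.50 to 6.61 CPM and neutrophil markers at 0 to 0.0441 CPM. Cells were divided by marker transcripts into CD4 cells (1605 to 2233 a library), CD8 cells (3942 to 4985), Foxp3-positive cells, the gate for regulatory T cells (133 to 185), cycling cells (203 to 325) and the remaining T cells, whose CD4 or CD8 transcripts did not decide (4095 to 5319).

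Chaperones bind unfolded or half-folded proteins and help them reach or keep their shape. HSP70 proteins such as Hspa8 work in cycles of ATP binding and hydrolysis. HSP40 proteins, here Dnaja1 and Dnajb1, bring them clients and speed the hydrolysis, and HSP110, here Hsph1, exchanges the nucleotide. HSP90 proteins, Hsp90aa1 and Hsp90ab1, take over clients such as kinases and hormone receptors, and Hspd1 (HSP60) with its lid Hspe1 (HSP10) folds proteins inside mitochondria. Under heat or other protein stress the transcription factor HSF1 binds heat shock elements, inverted repeats of GAA, and raises Hspa1a, Hspa1b, Dnajb1, Hsph1 and Hsp90aa1 above all, whereas Hspa8 and Hsp90ab1 are abundant in unstressed cells. In T cells, HSP90 stabilises signalling kinases such as Lck.

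The genes lie on 7 chromosomes of the mm10 build (GRCm38, GENCODE M21). Hspa1a (chr17:34969190-34972156, minus strand) and Hspa1b (chr17:34956436-34959238, minus strand) are neighbours. Their sequences are shown because they limit what the counts can tell: of 250 bases before each RefSeq start (GRCm38.p6), 247 are identical. Capitals mark the match to GAANNTTC, a pair of heat shock element units, which begins 104 bases before each start.
Hspa1a, chr17:34972157-34972406, minus strand: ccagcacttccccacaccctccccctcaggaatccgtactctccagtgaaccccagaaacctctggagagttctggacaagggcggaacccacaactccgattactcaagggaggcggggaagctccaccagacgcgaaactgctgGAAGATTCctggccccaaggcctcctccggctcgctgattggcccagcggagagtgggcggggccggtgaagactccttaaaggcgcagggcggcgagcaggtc
Hspa1b, chr17:34959239-34959488, minus strand: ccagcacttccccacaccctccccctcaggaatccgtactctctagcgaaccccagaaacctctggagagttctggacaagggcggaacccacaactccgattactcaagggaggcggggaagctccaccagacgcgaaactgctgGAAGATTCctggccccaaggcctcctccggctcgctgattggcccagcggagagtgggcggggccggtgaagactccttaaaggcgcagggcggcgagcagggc
The transcripts are alike too. Of 90-base windows in the first 500 bases, where a 5′ kit reads, 49.6% are shared between Hspa1a and Hspa1b. How reads that match both were counted is not stated, so the levels of these genes and the split between them are uncertain.

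Hspd1 (chr1:55077835-55088243, minus strand) and Hspe1 (chr1:55088132-55091307, plus strand) are head to head. RefSeq places a start of Hspd1 and the start of Hspe1 on either side of a 215-base gap, and lists another Hspd1 start at 55088243, inside Hspe1. The gap is shown because it lies before the starts of both genes. Capitals mark 3 overlapping matches to GAANNTTC or TTCNNGAA, which also hold 2 overlapping 13-base triples, TTCNNGAANNTTC or GAANNTTCNNGAA.
Hspd1 and Hspe1 gap, chr1:55087933-55088147, plus strand: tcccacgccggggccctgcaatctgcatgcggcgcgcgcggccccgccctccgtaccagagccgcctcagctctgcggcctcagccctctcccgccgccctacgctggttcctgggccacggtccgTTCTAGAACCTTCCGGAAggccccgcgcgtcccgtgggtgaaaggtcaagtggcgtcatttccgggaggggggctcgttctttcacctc
Such a triple occurs in 0.466% of the 32851 RefSeq promoter windows of 250 bases before a start, and an 8-base pair in 12.8%, both strands counted. Hsph1 (chr5:149614287-149636376, minus strand), which encodes the HSP110 protein, is shown as another layout, with 1 match close to its start.
Hsph1, chr5:149636337-149636586, minus strand: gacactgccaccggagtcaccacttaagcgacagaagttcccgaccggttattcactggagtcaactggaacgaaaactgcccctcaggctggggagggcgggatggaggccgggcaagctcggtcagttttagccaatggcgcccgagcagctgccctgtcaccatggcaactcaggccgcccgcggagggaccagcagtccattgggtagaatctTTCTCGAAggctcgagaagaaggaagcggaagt
The table of promoters held windows for 7 of the 10 genes, and 6 of the 7 had an 8-base match in at least 1 window. Counted by window, as the 12.8% is, 7 of 12 had a match. Several of these are the same or nearly the same stretch, as in Hspa1a and Hspa1b or Hspd1 and Hspe1. Dnaja1 (chr4:40722150-40737149, plus strand) had 1 match, in 1 of its 3 windows, and Dnajb1 (chr8:83608193-83612653, plus strand) had none in its 2 windows. A match describes letters and was not tested as a binding site. Hspa8 (chr9:40800984-40810087, plus strand), Hsp90aa1 (chr12:110690605-110702728, minus strand) and Hsp90ab1 (chr17:45567775-45573271, minus strand) complete the set.

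Near-copies elsewhere in the genome could split further counts. Of the same 90-base windows, 31.4% of Hsp90aa1 and 38.2% of Dnaja1 are found in other annotated genes, as are 16.3% of Hspe1, 5.84% of Hspa8 and 3.65% of Hspd1. Hsp90ab1, Hsph1 and Dnajb1 had no such window. Levels are therefore compared within a gene and not between genes.

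The constitutive HSP70 gene Hspa8 stood over all T cells at 1240.3, 1312, 1419 and 1462 CPM. The constitutive HSP90 gene Hsp90ab1 stood at 2109, 2259, 2196 and 2362 CPM in the same order. UMIs of Hsp90ab1 were found in 96.3% of T cells and of Hspa8 in 89.8%. For both genes the WT-CTRL library was the lowest and the KO-DOX library the highest.

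Counts of the stress-inducible HSP70 pair were very low. How reads that match both genes were counted is not known, so their true levels are uncertain. Hspa1a had 23, 30, 33 and 10 UMIs in the 4 libraries and Hspa1b 25, 30, 30 and 24, with levels of 0.273 to 0.722 CPM and 0.551 to 0.711 CPM. Of T cells, 45 (0.361%, exact 95% interval 0.263 to 0.483), 55 (0.452%, 0.341 to 0.589), 59 (0.466%, 0.355 to 0.600) and 32 (0.317%, 0.217 to 0.448) held a UMI of either gene, and no cell held more than 3. Among the barcodes outside the T cell gate the counts were 1 of 356, 0 of 279, 3 of 286 and 4 of 293, at median depths of 804.5 to 1578 UMIs. All 4 libraries were low, and the intervals of their shares overlapped. No library held a group of cells with many Hspa1 transcripts. The inducible HSP90 gene Hsp90aa1 was steady at 328, 317, 324 and 334 CPM.

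Among the other members, the mitochondrial chaperonin Hspd1 stood at 243, 207, 266 and 275 CPM and its lid Hspe1 at 277, 295, 279.95 and 309 CPM. Hsph1 stood at 46.4, 46.4, 46.3 and 53.8 CPM. The HSP40 gene Dnaja1 was near 300 in each library, at 289, 308, 289 and 308 CPM, and Dnajb1 at 88.1, 105, 99.0 and 95.5 CPM. WT-DOX was the low library for Hspd1 and KO-DOX the high one for Hsph1.

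Members differed in how evenly cells shared their transcripts. The 1% of cells with most Hspd1 UMIs held 33.9% of them, with up to 312 in 1 cell. The same share was 17.1% for Hsp90ab1, 17.4% for Hspa8 and 21.8 to 23.0% for Hsp90aa1, Hspe1 and Hsph1. Dnaja1 and Dnajb1 were spread most evenly, at 9.62% and 9.92%, with at most 49 and 8 UMIs in a cell.

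The 191 cells with a UMI of Hspa1a or Hspa1b were set beside the other T cells as a description. In 4 of 4 libraries they had higher Hspa8 (1779 to 3126 against 1224 to 1459 CPM), Hsp90aa1 (464 to 1032 against 316 to 331), Hsp90ab1, Hspd1, Hspe1 and Hsph1. Dnajb1 was higher in 1 of 4 libraries and Dnaja1 in 3 of 4. How many of all genes were higher in 4 of 4 libraries was not counted, so these genes cannot be set against a background. The cells with a UMI were deeper, with a median of 3561 against 3043 UMIs. Of the 205 UMIs of the pair, 31 were in cycling cells, which made up 1.67% to 3.02% of the T cells of a library. The part of depth and of cycling cells in the higher levels was not tested.

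**Figure D1:**
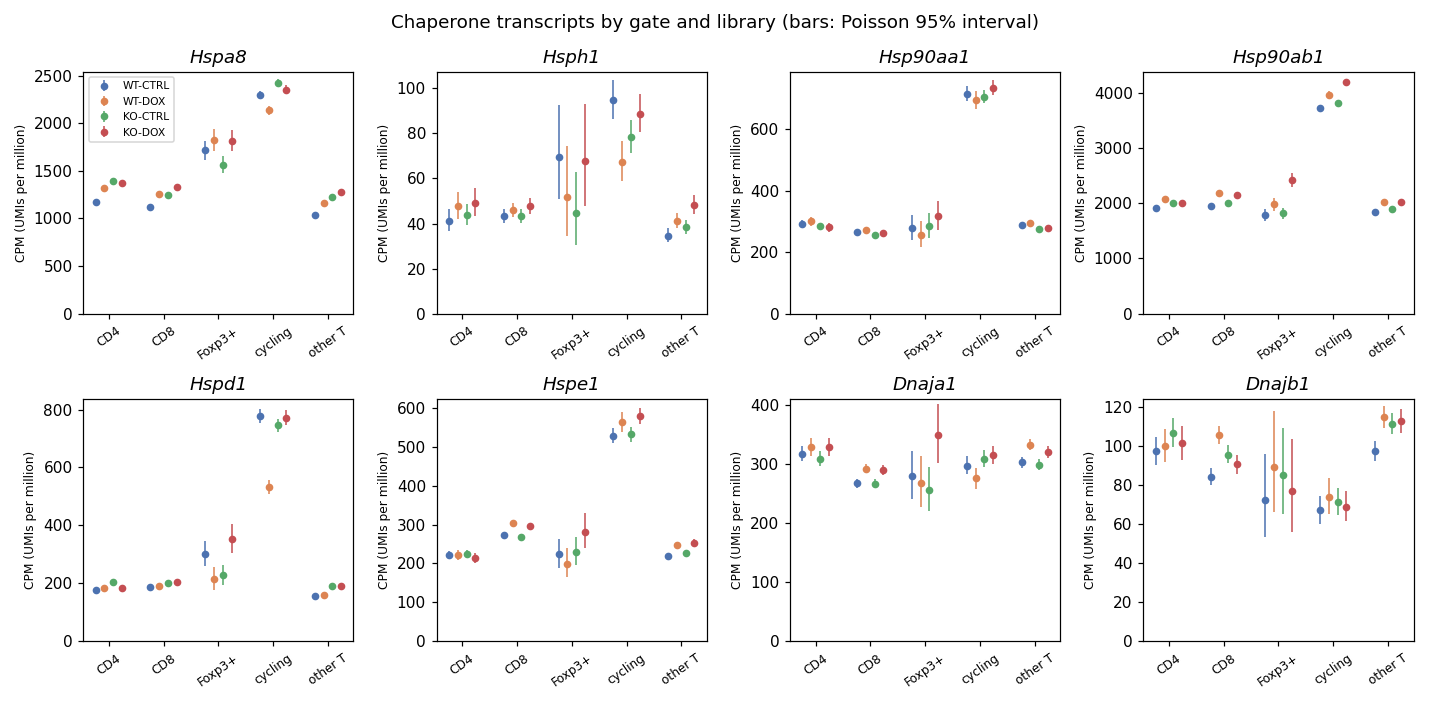
Level of 8 chaperone genes in CPM (y axis, from 0) by gate (x axis) and library (colour), with exact Poisson 95% intervals of counting error. Cycling cells stand highest in each library for Hspa8, Hsp90aa1, Hsp90ab1, Hspd1 and Hspe1 and not for Dnaja1 or Dnajb1, and the few Foxp3-positive cells have wide intervals.

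The comparison of cycling cells with the CD4, CD8 and Foxp3-positive cells pooled asks how the chaperones differ in dividing T cells. Both HSP90 genes, Hspa8, Hsph1 and the mitochondrial pair were higher in cycling cells, and Dnajb1 was lower. UMIs were summed per library and tested with edgeR's quasi-likelihood test with library as a block (n = 4 libraries), adjusted over all 12556 genes tested. Of the 10 members, 6 were higher and 1 lower, where 75.7% of all genes tested passed, 36.8% higher and 38.9% lower. A pass is therefore usual here, and the direction and size say more. The median log2 fold change of the members was 0.83 against -0.05 for all genes tested.

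Hspd1, the mitochondrial chaperonin, stood in cycling cells at 779, 533, 746 and 773 CPM, against 187, 189, 202 and 204 CPM in non-cycling cells. The groups did not overlap, though WT-DOX was well below the other 3 in cycling cells. The log2 fold change was 1.82 ± 0.06 (adjusted p = 2.11e-14). Values after ± are the SE of the edgeR fit, here and below, and not the spread between libraries. Its partner Hspe1 stood at 529, 564, 533 and 580.1 against 259, 285, 253 and 275 CPM, a log2 fold change of 1.01 ± 0.03 (adjusted p = 5.58e-15). The ratio of Hspd1 to Hspe1 UMIs was 0.945 to 1.47 in cycling cells, 0.624 to 0.746 in CD8 cells and 0.789 to 0.916 in CD4 cells. In Foxp3-positive cells it was 0.982 to 1.34, within the range of cycling cells.

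The inducible HSP90 gene Hsp90aa1 stood at 716, 695, 706 and 735 CPM in cycling cells against 274, 277, 266 and 268 CPM, a log2 fold change of 1.36 ± 0.03 (adjusted p = 1.08e-16). Hsp90ab1 stood at 3732, 3963, 3820.0 and 4193 against 1943, 2152, 2001 and 2115 CPM, a log2 fold change of 0.90 ± 0.02 (adjusted p = 1.33e-15). Thus both were higher in each library without overlap. The ratio of Hsp90aa1 to Hsp90ab1 UMIs was 0.175 to 0.192 in cycling cells and 0.122 to 0.137 in CD8 cells. It was 0.141 to 0.152 in CD4 cells, 0.129 to 0.156 in Foxp3-positive cells and 0.138 to 0.158 in the remaining cells. Within HSP70, Hspa8 stood at 2293, 2135, 2426 and 2353 against 1146, 1283, 1299 and 1350.2 CPM (log2 fold change 0.83 ± 0.04, adjusted p = 5.48e-13). The nucleotide exchange factor Hsph1 stood at 94.8, 67.5, 78.5 and 88.8 against 43.5, 46.4, 43.4 and 48.6 CPM (0.83 ± 0.07, adjusted p = 8.24e-09).

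The HSP40 genes went another way. Dnajb1 was lower in cycling cells of each library, at 66.8, 73.9, 71.1 and 68.8 against 87.2, 104, 98.5 and 92.7 CPM, a log2 fold change of -0.48 ± 0.05 (adjusted p = 8.15e-08). Dnaja1 stood at 297, 275, 309 and 315 against 281, 299, 279 and 300.5 CPM, overlapping groups with a log2 fold change of 0.01 ± 0.04 (adjusted p = 0.754). Hspa1a and Hspa1b had 17 and 14 UMIs in all cycling cells and did not pass (adjusted p = 0.157 and 0.873).

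Cycling cells were deeper, with a median of 13646 to 14716 UMIs a cell against 3360 to 3451. When each cell was thinned to 1500 UMIs before gating, the same 6 genes were higher with smaller values, 1.19 for Hspd1, 0.98 for Hsp90aa1, 0.54 for Hsp90ab1, 0.50 for Hspe1, 0.47 for Hsph1 and 0.41 for Hspa8 on the log2 scale. Dnajb1 kept -0.48, and Dnaja1 was then lower, at -0.31 (adjusted p = 0.00312). The same cuts on thinned counts left 132 to 216 cycling cells a library in place of 203 to 325. Cells of at least 1500 UMIs that no longer met the cut were gated as non-cycling or remaining. The parts of depth and of this change of gate in the smaller values were not tested. Immediate early transcripts (Fos, Fosb, Jun, Egr1, Dusp1 and Ier2 summed, 6 of 6 detected) stood at 791 to 890 CPM in cycling against 1992 to 2341 CPM in non-cycling cells, and their part in the lower Dnajb1 was not tested. B cell markers stood at 3.83 to 8.73 against 7.93 to 9.58 CPM, and the erythroid and neutrophil markers were at 0 in cycling cells. The cycling gate is a range cut at 3 UMIs from 15 division genes: 27 to 42 cells a library sat at 3 UMIs, 112 to 131 T cells at 2, and 157 to 254 at 10 or more.

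**Figure D2:**
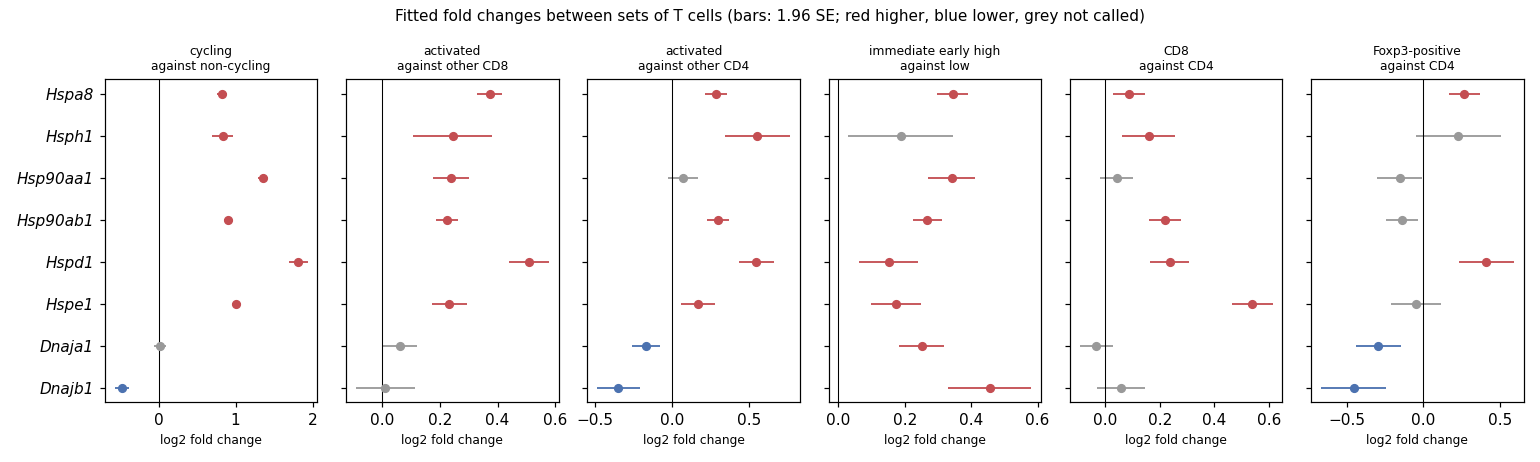
Fitted log2 fold change (x axis, scale differs by panel) of 8 chaperone genes (y axis) in 6 comparisons between sets of T cells, with bars for the 95% interval over 4 libraries. Red points passed as higher, blue as lower and grey did not pass at an adjusted p of 0.05. Dnajb1 is lower in cycling cells and higher in cells with many immediate early transcripts.

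The wider chaperone network was described by 8 lists with 76 genes, beside the same background of 75.7%. The cytosolic chaperonin TRiC, which folds actin and tubulin, had 8 of 8 subunits higher in cycling cells, led by Tcp1 at a log2 fold change of 1.28 and Cct8 at 1.05. HSP90 co-chaperones, which steer the HSP90 cycle, had 11 of 12 higher, led by Ppid at 1.43 and Stip1, the adaptor between HSP70 and HSP90, at 1.18, with Unc45a lower at -0.53. In the endoplasmic reticulum 10 of 12 genes were higher, led by Sdf2l1 at 2.79 and the disulphide isomerase Pdia6 at 1.60, while Dnajb9 at -1.88 and Dnajc3 at -0.19 were lower.

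Among mitochondrial chaperones and proteases, 6 of 8 were higher, with Trap1 at 0.70 and Clpb at 0.59. Other HSP70 and HSP110 genes had 4 of 6 tested higher, with Hspa13 at 0.82 and Hspa14 at 0.63. HSP40 genes outside the members had 2 of 12 higher, Dnajc9 at 1.34 and Dnajc2 at 0.75, and 9 lower, led by Dnajb4 at -1.97 and Dnajb2 at -1.24. The list of HSF1 and HSP70 regulators had 7 of 12 higher, with Bag2 at 2.14 and Bag1 at 0.79, and 3 lower, with Hsf1 itself at -0.78 and Bag5 at -0.39. Small heat shock proteins had 2 of 3 tested higher at very low levels, Hspb1 and Hspb6 at up to 1.16 and 4.18 CPM, and Hspb11 lower at -0.48.

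**Figure D3:**
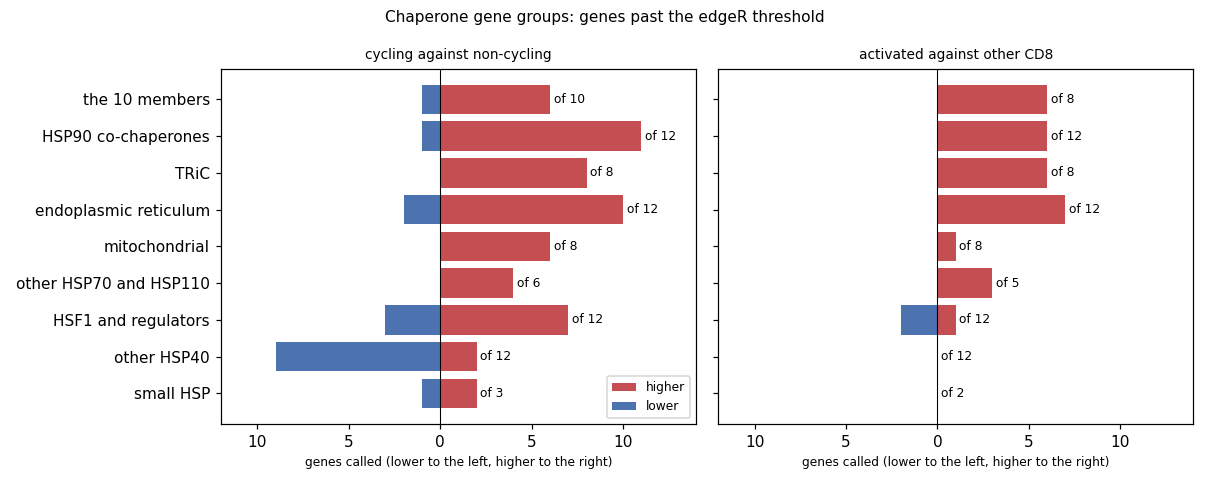
Number of genes that passed as higher (right, red) or lower (left, blue) in 9 groups of chaperone genes (y axis), in cycling against non-cycling cells and in activated against other CD8 cells. The number after each bar is the count tested, and HSP40 genes are the group with more lower than higher genes in cycling cells.

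Activated CD8 cells, those with at least 2 UMIs of Myc, Irf4, Tnfrsf9, Tnfrsf4, Egr2 and Nr4a3, genes induced by T cell receptor signals, were compared with CD8 cells that had 0. The HSP70, HSP90 and mitochondrial genes were higher in activated cells and the HSP40 genes did not pass. Of the 8 members tested 6 were higher and 0 lower, where 14.2% of all genes tested passed, 8.36% higher and 5.82% lower. Hspd1 stood at 252, 248, 268 and 254 CPM in activated cells against 171, 169, 183 and 191 CPM, without overlap, a log2 fold change of 0.51 ± 0.03 (adjusted p = 2.57e-19). Hspa8 stood at 1411, 1553, 1509 and 1543 against 1022, 1160.4, 1162 and 1266 CPM, again without overlap, a log2 fold change of 0.37 ± 0.02 (adjusted p = 1.89e-22).

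Hsph1, Hsp90aa1, Hspe1 and Hsp90ab1 were higher in activated CD8 cells of 4 of 4 libraries, by log2 fold changes of 0.24, 0.24, 0.23 and 0.22. The call of Hsph1 was lost without WT-CTRL (adjusted p = 0.159), by DESeq2 (adjusted p = 0.366) and with no replicate block (adjusted p = 0.0633), and its value was 0.96 after thinning. Dnaja1 had 0.06 (adjusted p = 0.215) and Dnajb1 0.01 (adjusted p = 0.932). Activated cells were deeper, with medians of 4150 to 4366 against 3309 to 3412 UMIs. After thinning, Hsp90aa1 and Hspe1 no longer passed (0.27 and 0.29, adjusted p = 0.354 and 0.268), with 72 to 104 activated cells left a library. In the network, 6 of 12 HSP90 co-chaperones, 6 of 8 TRiC subunits, 7 of 12 endoplasmic reticulum genes and 3 of 5 other HSP70 genes were higher and 0 lower. Hspa5 (BiP), the HSP70 of the endoplasmic reticulum, had a log2 fold change of 0.32, Cct8 0.33 and Ppid 0.36. No gene of 12 in the HSP40 list passed in either direction by edgeR.

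Activated CD4 cells by the same 6 genes showed Hspa8, Hsph1, Hsp90ab1, Hspd1 and Hspe1 higher and both HSP40 genes lower, while Hsp90aa1 did not pass (0.07, adjusted p = 0.297). Of 8 members tested, 5 were higher and 2 lower, where 41.2% of all genes tested passed, 21.2% higher and 19.9% lower. Hsph1 stood at 51.6 to 66.1 CPM against 33.7 to 46.8 CPM, without overlap, a log2 fold change of 0.55 ± 0.11 (adjusted p = 5.45e-05). Hspd1 stood at 215 to 288 against 140 to 166 CPM (0.55 ± 0.06, adjusted p = 2.74e-10). Dnajb1 was lower in each library, at 83.8, 88.0, 99.0 and 88.5 against 101, 107, 113 and 100.4 CPM (-0.35 ± 0.07, adjusted p = 9.84e-05), and Dnaja1 at -0.17 ± 0.05 (adjusted p = 0.00283).

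Scaling mattered for this comparison, since scaling by totals in place of TMM took the median of all genes from -0.01 to 0.11 in log2 units. Under it 6 members were higher, Hsp90aa1 included at 0.19 (adjusted p = 0.00241), and Dnaja1 no longer passed (-0.05, adjusted p = 0.410). Hspe1 (0.17) no longer passed without WT-CTRL or without KO-CTRL (adjusted p = 0.0926 and 0.227). Thinning left 3 members higher and 1 lower, Dnajb1 at -0.70. Hsph1 (adjusted p = 0.128) and Dnaja1 (adjusted p = 0.135) then did not pass, and Hspe1 had -0.15. Dnaja1 also did not pass with stricter gates (adjusted p = 0.0603). Among other HSP70 genes, Hspa4l at 1.01 and Hspa13 at 1.16 were higher, and 8 of 12 endoplasmic reticulum genes were higher and 1, Dnajb9, lower.

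Immediate early transcripts rise in T cells after receptor signals and also while tissue is handled. CD4 and CD8 cells with at least 6 UMIs of the 6 immediate early genes were compared with those that had at most 1. In this contrast Dnajb1 had the largest fold change of the members, and Dnaja1 was higher too. Hsph1 did not pass (0.19, adjusted p = 0.125), and passed after thinning (0.38, adjusted p = 0.0398). Of 8 members tested, 7 were higher and 0 lower, where 14.3% of all genes tested passed, 8.86% higher and 5.42% lower. Dnajb1 stood at 96.7, 113, 104 and 99.97 CPM in high cells against 72.6, 73.7, 95.2 and 75.1 CPM in low cells, without overlap, a log2 fold change of 0.46 ± 0.06 (adjusted p = 2.96e-06). KO-CTRL had the smallest gap.

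Hspa8 and Hsp90aa1 followed at 0.34 each, Hsp90ab1 at 0.27 and Dnaja1 at 0.25, higher in 4 of 4 libraries. Hspe1 (0.17) and Hspd1 (0.15) were higher in 3 of 4 libraries and did not pass when cells were thinned (-0.13 and -0.05), scaled by totals (0.10 and 0.07) or gated more strictly (0.13 and 0.16). The call of Hspd1 was also lost without WT-DOX or KO-CTRL (adjusted p = 0.227 and 0.0576), and that of Hspe1 without WT-CTRL (adjusted p = 0.0662). Thinning raised Dnajb1 to 0.67. High cells had medians of 3670.0 to 3775.5 UMIs and low cells 2662 to 2865.5. In the network, Bag3, an HSP70 co-chaperone that HSF1 induces, was higher at 1.24 (6.73 to 10.6 against 2.52 to 4.72 CPM). Hspa5 at 0.64, Dnajb2 at 0.61 and Dnaja4 at 0.52 were also higher, and TRiC had 1 of 8 and the HSP90 co-chaperones 1 of 12 genes higher. Hspa1a and Hspa1b had 84 UMIs in all high cells and 7 in all low cells, at 0.977 to 1.80 against 0.437 to 1.03 CPM together, below the filter of the test.

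CD8 cells were set against CD4 cells next. Hspe1 was higher in CD8 cells, and for the other members the result depended on scaling. Hspe1 stood at 274, 305, 267 and 295 CPM in CD8 cells against 222, 222, 224 and 213 CPM in CD4 cells, without overlap, a log2 fold change of 0.54 ± 0.04 (adjusted p = 1.37e-12). Of 9 members tested, 5 were higher and 0 lower, where 47.9% of all genes tested passed, 23.8% higher and 24.1% lower. Hspd1 (0.24), Hsp90ab1 (0.22), Hsph1 (0.16) and Hspa8 (0.09) were the others. Scaling by totals took the median of all genes to -0.17, and then only Hspe1 of the members was higher (0.37) and 5 were lower, with Hspa8 at -0.09. The CPM of Hspa8 was lower in CD8 cells of 4 of 4 libraries, at 1116 to 1327 against 1169.9 to 1390 CPM. Without WT-DOX or KO-DOX Hspa8 lost its call (adjusted p = 0.0878 and 0.0808), as did Hsph1 without WT-CTRL (adjusted p = 0.0531). Stricter gates ended both calls, with Hspa8 at 0.06 (adjusted p = 0.139) and Hsph1 at 0.0080 (adjusted p = 0.944), brought Hspd1 to 0.13, and made Hsp90aa1 pass at 0.11 (adjusted p = 0.0360). Hsph1 also did not pass after thinning (adjusted p = 0.375) or by DESeq2 (adjusted p = 0.192). In the network, 5 of 8 TRiC subunits and 4 of 8 mitochondrial genes were higher and 0 lower, while 4 of 6 other HSP70 genes were lower, under the same TMM scaling. B cell markers stood at 10.3 to 11.7 CPM in CD8 and 1.76 to 2.58 CPM in CD4 cells, and their part was not tested.

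Foxp3-positive cells were compared with CD4 cells without Foxp3. Hspa8 and Hspd1 were higher and both HSP40 genes lower. Of 8 members tested, 2 were higher and 2 lower, where 27.4% of all genes tested passed, 14.2% higher and 13.2% lower. Hspa8 stood at 1714, 1819, 1562 and 1814 CPM against 1169.9, 1323, 1390 and 1367 CPM, without overlap, a log2 fold change of 0.27 ± 0.05 (adjusted p = 9.3e-05). Hspd1 stood at 299.96, 214, 227 and 352 against 175, 183, 205 and 183 CPM, a wide spread between libraries, with a log2 fold change of 0.41 ± 0.09 (adjusted p = 0.000519). Dnajb1 stood at 72.4, 89.2, 84.8 and 76.8 against 97.1, 99.7, 106 and 101 CPM (-0.45 ± 0.11, adjusted p = 0.00113), and Dnaja1 had -0.29 ± 0.07 (adjusted p = 0.00223).

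These calls rest on 133 to 185 cells a library. With each cell thinned, Hspd1 had -0.04 (adjusted p = 0.926) and Hspa8 0.16 (adjusted p = 0.167). Dnajb1 then had -0.49 (adjusted p = 0.151), Dnaja1 -0.47 (adjusted p = 0.00461), and Hsp90ab1 passed as lower at -0.21 (adjusted p = 0.0477). With stricter gates none of the 4 called genes passed, while Hsp90ab1 was lower at -0.27 (adjusted p = 0.000666). Without KO-DOX, Hsp90ab1 and Hsp90aa1 also passed as lower (-0.23 and -0.21). Scaling by totals took the median of all genes from -0.01 to 0.12, and Dnaja1 then had -0.16 (adjusted p = 0.0968). In the endoplasmic reticulum list 8 of 12 genes were higher, such as Canx at 0.63 and Sdf2l1 at 0.69, and 2 lower. The activation genes stood at 1324 to 1901 CPM in Foxp3-positive cells and at 391 to 452 CPM in CD4 cells. B cell markers (1 to 2 of 4 detected) stood at 5.56 to 16.1 against 1.76 to 2.58 CPM. The part of either list in these values was not tested.

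The order of the gates differed by gene. By the median over libraries, cycling cells came first without overlap for Hspa8, Hsp90aa1, Hsp90ab1, Hspd1 and Hspe1. Foxp3-positive cells came next, without overlap, for Hspa8 (1562 to 1819 CPM) and Hspd1 (214 to 352 CPM), and CD8 cells for Hspe1 (267 to 305 CPM). Below these places neighbouring gates overlapped for the 5 genes. The cycling cells also came first for Hsph1, overlapping the Foxp3-positive cells. For Dnaja1 CD4 cells came first and for Dnajb1 the remaining T cells (97.2 to 115 CPM), with each neighbour overlapping, and cycling cells came last for Dnajb1.

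The comparison of WT-DOX with WT-CTRL sets the drug against the control treatment within the control genotype. Differences between libraries are called here when they reach 0.32 log2 units of CPM plus 1 and the counting intervals are apart, among genes with at least 10 CPM in either library. This takes 8 of the 10 members and leaves out Hspa1a and Hspa1b. None of the 8 was called, where 3.85% of 7766 genes were (3.19% lower). Dnajb1 was the highest, at 105 against 88.1 CPM, a log2 fold of 0.25 (95% interval 0.19 to 0.31), and Hspd1 the lowest, at 207 against 243 CPM, a log2 fold of -0.23 (-0.27 to -0.19). The value of Hspd1 was -0.0099 with each cell thinned and 0.02 with cycling cells left out. The median of the members was 0.08 and of all genes -0.02.

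KO-DOX against KO-CTRL asks the same of the knockout label. Again 0 of 8 members were called, beside 1.26% of genes, and the values ran from -0.05 for Dnajb1 to 0.21 for Hsph1 (53.8 against 46.3 CPM). Hspe1 had 0.14 and Hsp90ab1 0.11. KO-CTRL against WT-CTRL, the genotype labels without drug, also had 0 of 8 called, beside 1.84% (1.32% higher), with Hspa8 highest at 0.19 (1419 against 1240.3 CPM). These comparisons share libraries and are given side by side only.

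In KO-DOX against WT-DOX, the genotype labels under doxorubicin, 1 of 8 members was called, beside 4.63% of genes (3.84% higher and 0.796% lower). Hspd1 stood at 275 against 207 CPM, a log2 fold of 0.40 (0.36 to 0.45). Without cycling cells it was 0.15, with each cell given the same weight 0.21 and with cells thinned 0.20, and none of these was called. Cycling cells made up 2.46%, 1.67%, 2.57% and 3.02% of T cells in the 4 libraries, lowest in WT-DOX.

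Of the network lists, St13, an HSP70 cofactor, was called lower in WT-DOX (90.9 against 123 CPM in WT-CTRL). Fkbp5, an HSP90 co-chaperone that glucocorticoids induce, stood at 26.6, 32.7, 37.6 and 44.5 CPM and was called higher in both comparisons of knockout with control label. Of the 76 genes, 66 or 67 reached 10 CPM in a comparison, and no other of these was called. In WT-DOX against WT-CTRL this was 1 of 67, beside 3.85% of all genes. For the genotype labels it was 1 of 66 without drug, beside 1.84%, and 1 of 67 under doxorubicin, beside 4.63%. These counts are not above the share over all genes.

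**Figure D4:**
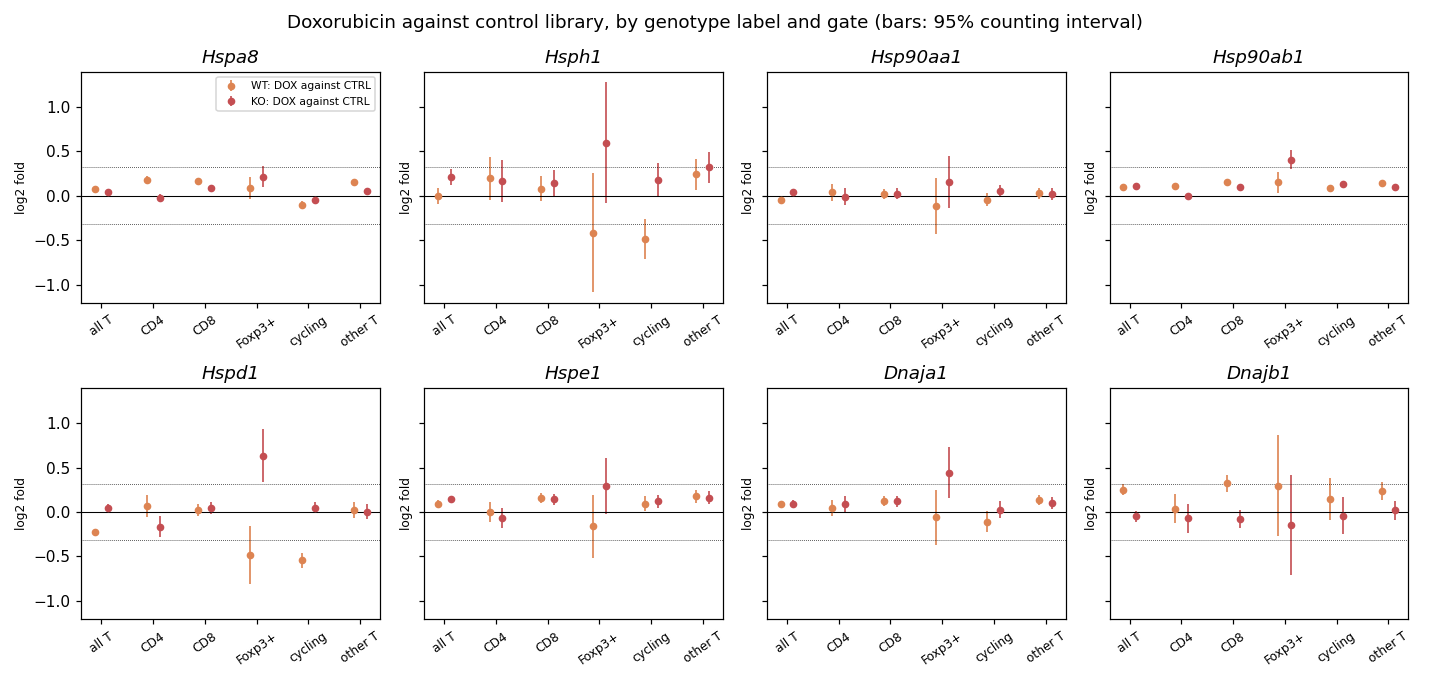
Log2 fold of CPM plus 1 of doxorubicin against control library (y axis) for 8 genes, over all T cells and in 5 gates (x axis), for the control genotype (orange) and the knockout label (red), with 95% counting intervals. Dotted lines mark 0.32 in each direction. Most points lie between them, and those outside are in Foxp3-positive cells (Hspd1 and Hsph1 below in the control genotype, and Hspd1, Hsph1, Dnaja1 and Hsp90ab1 above in the knockout label), in cycling cells (Hspd1 and Hsph1 below in the control genotype), and just past the line for Dnajb1 in CD8 cells and Hsph1 in remaining cells.

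The same comparisons were made within gates. Hspd1 in cycling cells was 533 CPM in WT-DOX against 779 in WT-CTRL, a log2 fold of -0.55 (-0.63 to -0.47), and Hsph1 67.5 against 94.8 CPM, -0.48 (-0.71 to -0.26). These 2 of 8 members were called, beside 5.99% of genes. In the knockout label 0 of 8 were called, beside 2.71%, with Hspd1 at 0.05 and Hsph1 at 0.17. The difference of the responses was 0.60 (0.49 to 0.70) for Hspd1 and 0.66 (0.36 to 0.95) for Hsph1, both called beside 9.76% of genes. Leaving out the 10 cells richest in the gene in each library gave -0.54 and -0.44 in the control genotype. After thinning, Hspd1 had -0.35, not called, and Hsph1 turned to 0.36, also not called. With stricter gates Hspd1 (-0.55) and Hsph1 (-0.42) were both called.

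In CD8 cells, Dnajb1 stood at 105 CPM in WT-DOX against 84.1 in WT-CTRL, 95.4 in KO-CTRL and 90.5 in KO-DOX. The log2 fold with doxorubicin was 0.32 (0.23 to 0.42) in the control genotype, 1 of 8 members called beside 3.75% of genes. This value was 0.36 and called after thinning, and 0.31 and not called with stricter gates. In the knockout label the fold was -0.08, and 0 of 8 members were called beside 1.7%. The difference of the responses, -0.40 (-0.54 to -0.26), was called beside 5.59% of genes. In CD4 cells 0 of 8 members were called in either response, beside 3.09% and 2.45%. In the remaining cells 0 were called in the control genotype, beside 3.29%. In the knockout label 1 was called beside 2.83%, Hsph1 at 0.32 (48.2 against 38.4 CPM). Its value was 0.24 and not called after thinning, and 0.34 and called with stricter gates.

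In Foxp3-positive cells, Hspd1 was 214 CPM in WT-DOX against 299.96 in WT-CTRL, -0.49 (-0.81 to -0.16), called beside 1.49% of genes. This value was -1.12 and not called after thinning, -0.78 and called with stricter gates, and -0.32 and not called without the 10 cells richest in it. Hspd1 was 352 CPM in KO-DOX against 227 in KO-CTRL, 0.63 (0.33 to 0.93), where Hsp90ab1 (0.41) and Dnaja1 (0.44) were called too, beside 2.19%. The values of Hspd1, Hsp90ab1 and Dnaja1 in the knockout label turned to -0.14, -0.27 and -0.04 after thinning. Without the 10 cells richest in the gene they were 0.25, 0.14 and 0.34, none called. With stricter gates Hspd1 (0.62) and Dnaja1 (0.55) were not called, and Hsp90ab1 (0.35) was. Differences of the responses were called, beside 7.24%, for Hspd1 at 1.12 (0.67 to 1.56), Hsph1 at 1.01 (0.06 to 1.97) and Dnaja1 at 0.50 (0.08 to 0.93). Hsph1 had 145 UMIs in all Foxp3-positive cells, and neither of its responses was called. No difference was called in CD4 cells (beside 7.14%) or the remaining cells (6.7%).

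For the genotype labels within gates, KO-CTRL against WT-CTRL had 0 of 8 members called in CD4 (beside 2.25%), CD8 (2.24%), Foxp3-positive (1.73%), cycling (3.37%) and remaining cells (3.05%). Under doxorubicin, KO-DOX against WT-DOX had 0 called in CD4 (3.75%), CD8 (2.21%) and remaining cells (3.82%). Hspd1 was called higher in Foxp3-positive cells, 352 against 214 CPM (0.71, beside 2.07%). It was not called after thinning (0.62), with stricter gates (0.57) or without the 10 cells richest in it (0.27). In cycling cells Hspd1 (0.53) and Hsph1 (0.39) were called higher, beside 4.4%. They had 0.27 and -0.18 after thinning, neither called, and 0.57 and 0.39 with stricter gates, both called.

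Over all T cells no member had a called difference of the responses, beside 5% of genes. Hspd1 (0.27) and Hsph1 (0.22) were the most positive, and Dnajb1 (-0.30, interval -0.39 to -0.21) the most negative. After thinning these were 0.031, 0.0099 and -0.27. The part of the mix of cells in these differences was not tested. The closing section gives only counts of called members under other weights of cells and gates.

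Patterns over the 20 sums of 4 libraries and 5 gates were compared by Pearson correlation of log2 CPM plus 1. The sums share libraries and depth, and the cycling gate sets most of the range, so the values are a description. The most similar gene was Bak1 for Hspa8 (0.981), H2afx for Hsp90aa1 (0.994), Nme1 for Hsp90ab1 (0.990), Idh3a for Hspd1 (0.988) and Impdh2 for Hspe1 (0.988). For Hsph1 it was Glrx3 (0.955), with the co-chaperone Stip1 also among its first 3 (0.946). Over the 16 sums without cycling cells Hsp90aa1 and H2afx had 0.808, and Hsp90aa1 with its second gene Rrm1 0.527.

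Dnaja1 was most like another HSP40 gene, Dnajc21 (0.818, and 0.905 without cycling cells), and Dnajb1 like Prdx6 (0.928 and 0.863). Among members, Hspd1 and Hsph1 stayed close without cycling cells (0.940 and 0.879), as did Hspa8 and Hspd1 (0.937 and 0.840). Hspd1 and Hspe1, which share the promoter gap printed above, had 0.898 over 20 sums and 0.171 without cycling cells. Dnajb1 ran against Hspd1 in both sets, at -0.861 and -0.764.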

How the data were processed

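The deposited files hold counts of UMIs per gene and barcode for 4 libraries, made by the authors with build mm10 per the submitters' processing notes. The aligner, cell calling and treatment of reads with several matches were not given in the sources used here. Cells needed 300 genes or more and no more than 10% mitochondrial UMIs, which 48578 of 48597 barcodes passed, and 47364 were T cells by marker transcripts, with at most 1 UMI of B cell and 1 of myeloid genes. This exclusion treated doublets, and cells with both CD4 and CD8 transcripts were kept out of the CD4, CD8 and Foxp3-positive gates. Such cells could stay in the cycling and remaining gates and in the sums over all T cells. After filtering, 36 to 63 cells a library had at least 2 UMIs of both. A doublet score above 0.25 was an alternative. CD4 and Foxp3-positive gates needed 1 UMI and the CD8 gate 2. UMIs were summed per library and gate. Levels are CPM with exact Poisson 95% intervals, and shares have exact Clopper-Pearson intervals. The intervals cover counting error only.

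Between gates, edgeR 4.0.16 (R 4.3.3, TMM, filterByExpr, library as a block because both sums come from 1 library) gave quasi-likelihood tests with Benjamini-Hochberg adjustment at 0.05. DESeq2 1.42.0 was an alternative. Other computations used Python 3.11.15. Both scripts were tested on simulated data. Between libraries no test exists. Positions are from GENCODE M21, promoter windows from RefSeq (GRCm38.p6).

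The members, lists, comparisons and named genes were chosen with earlier results of these data known. Named network genes were those called with the largest fold, up to 2 per list and direction, and the most similar genes the first 3 by correlation among genes with a mean of at least 20 CPM. Alternatives were a filter of 800 genes and 5% mitochondrial UMIs, doublet scores, thinning each cell to 1500 UMIs (813 to 1148 T cells a library were shallower and left out), stricter gates, no replicate block, no filter on low counts, a pseudocount of 0.1 CPM, median-of-ratios scaling, weights of cells and gates, leaving out cells or libraries, and, added after seeing the data, scaling by totals.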

Additional observations from a re-analysis of the deposited data

Results flagged for a closer look

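With doxorubicin, 3 results moved one way in the control genotype and the other way in the knockout label, with each counting interval clear of 0. They come from 8 members checked over all T cells and in 5 gates. How many of all genes meet this rule was not counted, so the 3 results cannot be set against a background. With 1 library a group the difference was not tested. Hsp90aa1 over all T cells had a log2 fold of -0.05 in the control genotype and 0.04 in the knockout label, a difference of 0.090. With each cell thinned both responses were positive, 0.034 and 0.047, with a difference of 0.013. Hspd1 over all T cells had -0.23 and 0.05, a difference of 0.27, and the response in the control genotype was 0.02 without cycling cells. With each cell thinned the responses were -0.0099 and 0.021, a difference of 0.031. Hspd1 in Foxp3-positive cells had -0.49 and 0.63, a difference of 1.12, from 133 to 185 cells a library. After thinning they were -1.12 and -0.14, both negative and not called.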

How the results depend on the processing

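For the library comparisons, the count of members called in KO-DOX against WT-DOX (1) was 0 with each cell thinned, 0 with each cell given the same weight and 0 with cycling cells left out. The count for the difference of the doxorubicin responses (0) was 1 without doublet scores above 0.25, 1 under median-of-ratios scaling and 2 under an equal mix of gates. The other 3 library counts stayed at 0 under the alternatives run.

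For the gate comparisons, CD8 against CD4 had 3 members called in place of 5 with no replicate block. The pairing of gates by library comes from the design. Foxp3-positive against CD4 had 2 in place of 4 after thinning and 1 under stricter gates, and activated against other CD4 had 4 in place of 7 after thinning. Without each library in turn the counts were 4 to 5 for CD8 against CD4, 4 to 6 for Foxp3-positive against CD4, 7 to 8 for cycling, 5 to 6 for activated CD8, 6 to 7 for activated CD4 and 6 to 7 for immediate early high against low. The cause of these moves was not tested. Thinning leaves fewer cells and UMIs, and gating on thinned counts also moves cells between sets. For example, immediate early low cells numbered 1203 to 1544 a library after thinning and 692 to 932 before.

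The following log2 values of called differences between libraries and of gate comparisons changed sign. After thinning: in cycling cells Hsph1 in WT-DOX against WT-CTRL (0.36) and in KO-DOX against WT-DOX (-0.18). In Foxp3-positive cells of KO-DOX against KO-CTRL, Hsp90ab1 (-0.27), Hspd1 (-0.14) and Dnaja1 (-0.042). In Foxp3-positive against CD4, Hspd1 (-0.041). In cycling against non-cycling, Dnaja1 (-0.31). In activated against other CD8, Dnajb1 (-0.15). In activated against other CD4, Hsp90aa1 (-0.10) and Hspe1 (-0.15). In immediate early high against low, Hspd1 (-0.048) and Hspe1 (-0.13). Under scaling by totals, an alternative added after seeing the data, CD8 against CD4 turned for Hspa8 (-0.086), Hsp90aa1 (-0.13), Hsph1 (-0.012) and Dnajb1 (-0.11), and Foxp3-positive against CD4 for Hspe1 (0.082). Stricter gates turned Dnaja1 in CD8 against CD4 (0.058). The stricter cell filter turned Hspa1b in cycling cells (-0.021). With no filter on low counts, Dnaja1 in cycling (-0.056) and Dnajb1 in activated CD8 cells (-0.012) turned. Leaving out 1 library turned values near 0: Dnajb1 in CD8 against CD4 (-0.0085 to 0.10), Hspe1 in Foxp3-positive against CD4 (-0.14 to 0.030), Dnaja1 in cycling (-0.010 to 0.078) and Dnajb1 in activated CD8 cells (-0.042 to 0.059). Of the uncalled differences between libraries and between responses over all T cells, 58 further values changed sign, 15 with cycling cells left out, 12 after thinning and 12 with each cell given the same weight. After thinning, Hsp90aa1 (0.034) and Hsph1 (0.22) turned in WT-DOX against WT-CTRL, and Hsp90aa1 (-0.031), Hspe1 (-0.028) and Hsp90ab1 (-0.0083) in KO-DOX against WT-DOX. Differences of the responses within gates were not recomputed. Hspa1a and Hspa1b rest on 96 and 109 UMIs in all.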
